A study of Mus musculus with 8 samples.

Results

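Secreted Wnt antagonists were represented by 5 genes, Frzb, Sfrp1, Sfrp2, Sfrp5 and Dkk1. Their members were the probe sets that the platform annotation assigned to exactly 1 of these symbols, which gave 8 of the 28898 probe sets with a single gene symbol (5 of 17097 symbols). Frzb, Sfrp5 and Dkk1 had 2 probe sets each, and Sfrp1 and Sfrp2 had 1 each. The 3 probe sets annotated to Sfrp1 together with Serinc3 were not used. All 8 probe sets passed the filter on low values, which asked for at least 2 of the 8 arrays above 4.38, the median log2 value of the whole deposited table. The cells came from gastrulating mouse embryos carrying Mesp1-rtTA and Teto-H2B-GFP, so that a Mesp1-driven transactivator switched on a nuclear green fluorescent protein. Live cells that excluded propidium iodide were sorted into lots of 50, and their cDNA was amplified for 25 cycles before hybridization. There were 4 groups of 2 arrays, numbered biological replicate 1 and 2: GFP+ and GFP- cells at embryonic day (E) 7.5, and GFP+ and GFP- cells at E6.5. All groups, GFP- cells included, came from embryos with both transgenes. The reporter is a histone fusion, which is known to be stable, so that GFP can outlast the activity of the promoter. GFP- cells were live cells sorted for lack of GFP, not for lack of Mesp1 RNA, and may hold several tissues. The sources used here do not give the strain, the number of embryos pooled or the use of doxycycline.

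Wnt ligands act through Frizzled receptors and the co-receptors Lrp5 and Lrp6, and signalling through beta-catenin is needed to form the primitive streak and mesoderm. Frzb (also called Sfrp3), Sfrp1, Sfrp2 and Sfrp5 are secreted Frizzled-related proteins, which carry a Frizzled-like cysteine-rich domain and can bind Wnt ligands outside the cell. Dkk1 works differently, since it binds Lrp5 and Lrp6 and so blocks beta-catenin signalling, and it is needed for head formation in the mouse. Before and during gastrulation, Dkk1, Sfrp1 and Sfrp5 are known from the anterior visceral endoderm, an extraembryonic epithelium that restricts the streak to the posterior side. Dkk1 is also a known target of beta-catenin signalling.

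The 250 bases before the annotated start are shown for 2 members, Frzb because it had the largest difference between the fractions, and Dkk1 because it alone held the motif searched. The motif was 2 spellings, CTTTGAT and CTTTGTT, of the site bound by the TCF/LEF factors that carry the beta-catenin signal. Both strands were searched, and other spellings of the site were not. Sequences are from RefSeq (GRCm38.p6), which had 4 of the 5 members, all but Sfrp1. The Frzb window was chr2:80447397-80447646 on the minus strand and the Dkk1 window chr19:30549497-30549746 on the minus strand, both written 5′ to 3′ along the gene, with the motif in capitals.
Frzb: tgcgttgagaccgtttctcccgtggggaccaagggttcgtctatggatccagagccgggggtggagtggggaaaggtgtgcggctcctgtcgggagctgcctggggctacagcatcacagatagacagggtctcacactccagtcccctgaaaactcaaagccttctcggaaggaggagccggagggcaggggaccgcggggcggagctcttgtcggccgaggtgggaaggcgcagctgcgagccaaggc
Dkk1: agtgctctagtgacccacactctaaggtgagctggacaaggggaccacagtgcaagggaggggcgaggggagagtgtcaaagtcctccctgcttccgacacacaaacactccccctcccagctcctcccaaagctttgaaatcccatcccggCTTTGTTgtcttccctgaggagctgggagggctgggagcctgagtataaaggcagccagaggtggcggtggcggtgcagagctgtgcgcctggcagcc
The Dkk1 window held CTTTGTT once, beginning 98 bases before the start, and the windows of Frzb, Sfrp2 and Sfrp5 held neither spelling. Of 32851 such windows in the same table, 2648 (8.06%) held at least 1. A match of letters is a description and not a binding site.

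Values were the authors' RMA log2 expression of each probe set. Mesp1 checked the sort, with 9.75 and 10.03 in GFP+ against 5.64 and 6.26 in GFP- cells at E6.5, which gave 3.94 (SE 0.34, limma adjusted p = 0.0396). That call was lost without any 1 of the 8 arrays (limma adjusted p = 0.0787 to 0.486), while the difference stayed between 3.63 and 4.25. At E7.5 it had 8.75 and 8.65 in GFP+ against 7.76 and 8.06 in GFP- cells (0.79, SE 0.34, limma adjusted p = 1.0). Array medians were 4.197 to 4.233 for replicate 1 and 4.545 to 4.594 for replicate 2, and sorted values differed by at most 0.0399 on average within a number but by at least 0.196 between numbers. Most differences are therefore also given within replicate 1 and within replicate 2, although the labels do not say that a number marks the same embryos. Adjusted p-values come from limma on all 8 arrays, with Benjamini-Hochberg adjustment over 18584 named probe sets, and a probe set was called at an adjusted p under 0.05. Between 5 and 8 of the 8 member probe sets lay above 4.38 in each array. The labels call the replicates biological, and nothing says how the embryos were divided, so that p-values measure the spread between these arrays. In such sorted pools, fewer cells of a type and less RNA per cell cannot be told apart.

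Frzb separated the fractions at E6.5 more than any other antagonist here, and was higher in GFP+ cells on both of its probe sets. Its brighter probe set, 1448424_PM_at, had 9.82 and 9.54 in GFP+ cells against 4.5 and 5.94 in GFP- cells at E6.5. Both GFP+ arrays lay above both GFP- arrays by a wide margin. The difference was 4.46 (SE 0.53, 95% interval 3.21 to 5.70, 21.9-fold), or 5.31 within replicate 1 and 3.6 within replicate 2. The GFP- replicate 1 value of 4.5 lay close to the filter value of 4.38, so the size is uncertain. Without that array the difference was 3.73, and without GFP- E6.5 replicate 2 it was 5.18. The difference over all arrays ranked 12 of 18584 by p but did not pass (limma adjusted p = 0.0769). It passed with each array centred on its median (limma adjusted p = 0.0474) and with a prior spread that varied with level (0.0184), in a range of 0.0184 to 0.698 over the alternatives run. The second probe set, 1416658_PM_at, had 7.99 and 7.47 in GFP+ cells against 3.64 and 5.42 in GFP- cells. Its difference of 3.20 (SE 0.58, limma adjusted p = 0.2) had the same direction, and its GFP- replicate 1 value lay below 4.38, so its size is uncertain.

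At E7.5 the Frzb arrays of the fractions still did not overlap, but stood closer. Probe set 1448424_PM_at had 9.04 and 8.67 in GFP+ against 7.78 and 6.92 in GFP- cells, which gave 1.51 (SE 0.53, limma adjusted p = 1.0; 1.26 and 1.75 within replicates 1 and 2). Probe set 1416658_PM_at had 6.46 and 6.91 in GFP+ against 5.88 and 5.48 in GFP- cells, which gave 1.01 (SE 0.58). Between the stages the fractions differed in direction. In GFP+ cells 1448424_PM_at was lower at E7.5 than at E6.5 (-0.82, SE 0.53, limma adjusted p = 1.0). In GFP- cells it was higher at E7.5 (2.13, SE 0.53, limma adjusted p = 0.372; 3.28 and 0.97 within replicates 1 and 2). Probe set 1416658_PM_at had -1.04 (SE 0.58) in GFP+ and 1.15 (SE 0.58) in GFP- cells for the same stage differences. In GFP- cells that was 2.24 within replicate 1 but 0.06 within replicate 2, and 0.26 without GFP- E6.5 replicate 1, whose value of 3.64 lay below 4.38. Both Frzb probe sets showed opposite stage differences with no overlap of arrays in either fraction, as did 2.73% of the probe sets tested, although on 1416658_PM_at the nearest GFP- arrays were 5.48 at E7.5 and 5.42 at E6.5. The order of the group means of 1448424_PM_at was GFP+ E6.5 (9.68), GFP+ E7.5 (8.86), GFP- E7.5 (7.35) and GFP- E6.5 (5.22), with no overlap of arrays between neighbours. Averaged over the stages, Frzb was 2.98 higher in GFP+ cells (SE 0.38, limma adjusted p = 0.114, and 0.037 with the varying prior spread), with GFP+ arrays between 8.67 and 9.82 and GFP- arrays between 4.5 and 7.78. Both of its probe sets kept all 4 GFP+ arrays above all 4 GFP- arrays, a split seen in 2.76% of the probe sets tested, in either direction.

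**Figure D1:**
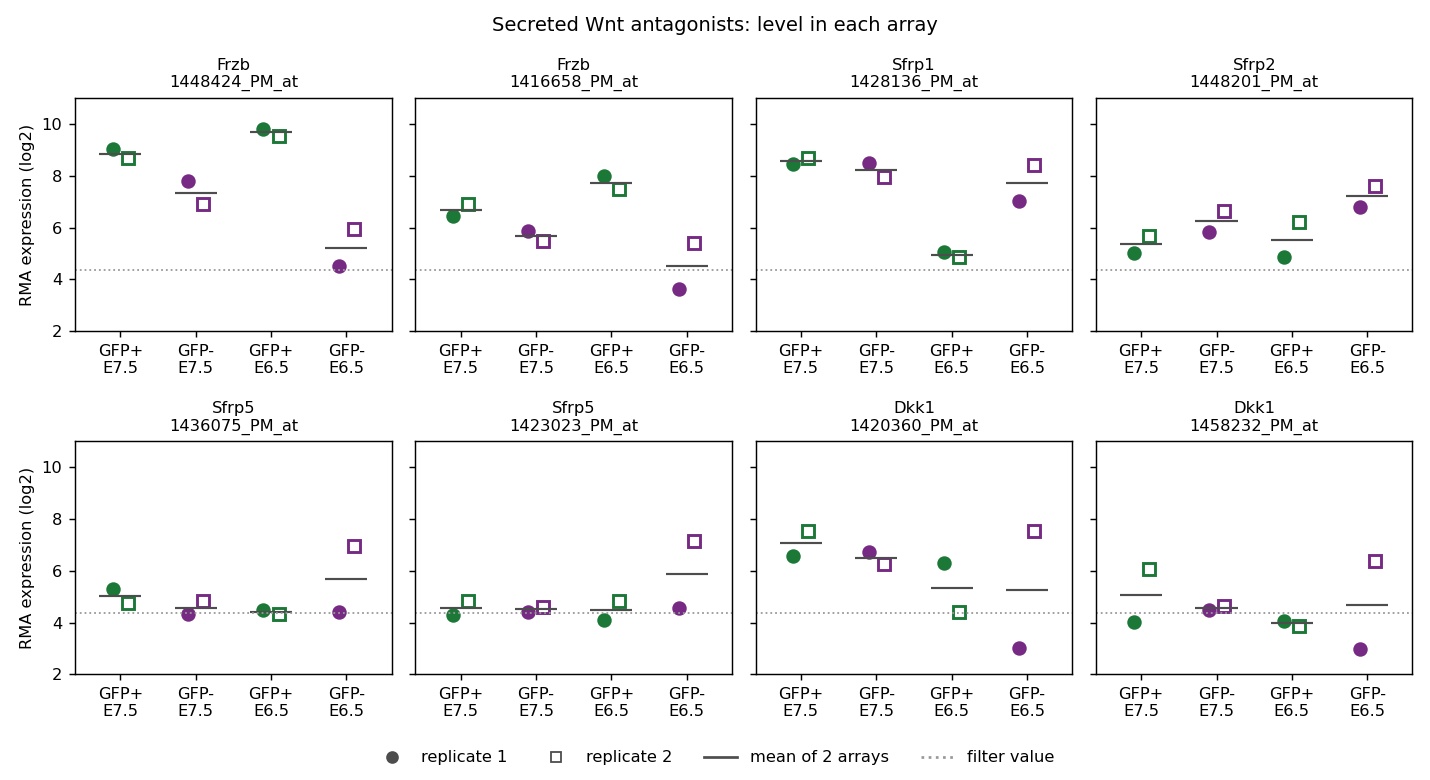
Level of each of the 8 probe sets (y axis, RMA log2 expression) in the 4 groups (x axis). Circles are replicate 1, squares replicate 2, short lines the mean of the 2 arrays, and the dotted line the filter value of 4.38. On 1448424_PM_at the Frzb arrays lie at 9.82 and 9.54 in GFP+ cells at E6.5 and at 4.5 and 5.94 in GFP- cells, whereas the 2 Dkk1 arrays of GFP- cells at E6.5 lie far apart, at 3.00 and 7.52 on 1420360_PM_at.

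Sfrp1 set the E6.5 GFP+ cells apart from the other 3 groups. Its probe set 1428136_PM_at had 5.04 and 4.86 in GFP+ cells at E6.5, against 7.03 and 8.43 in GFP- cells at that stage. Both GFP+ arrays lay below both GFP- arrays, with a difference of -2.78 (SE 0.49, 95% interval -3.92 to -1.63, limma adjusted p = 0.176; -1.98 and -3.57 within replicates 1 and 2). At E7.5 the fractions overlapped, with 8.45 and 8.67 in GFP+ against 8.50 and 7.94 in GFP- cells (0.34, SE 0.49, 95% interval -0.81 to 1.48). In GFP+ cells Sfrp1 was higher at E7.5 than at E6.5 in both replicates, by 3.41 and 3.81. The limma difference was 3.61 (SE 0.49, 12.2-fold, 95% interval 2.46 to 4.75), the largest stage difference of any member, and it did not pass (limma adjusted p = 0.222, 0.0581 to 1.0 over the alternatives run). In GFP- cells the stages overlapped, and the difference was 0.49 (SE 0.49). The order of the group means was GFP+ E7.5 (8.56), GFP- E7.5 (8.22), GFP- E6.5 (7.73) and GFP+ E6.5 (4.95), in which the neighbours among the upper 3 overlapped. Averaged over fractions, the stage difference of 2.05 (SE 0.35, limma adjusted p = 0.103) passed under a prior spread that varied with level (0.0396).

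Sfrp2 ran against Frzb, and was lower in GFP+ cells at both stages. At E6.5 probe set 1448201_PM_at had 4.86 and 6.21 in GFP+ against 6.81 and 7.62 in GFP- cells, which gave -1.68 (SE 0.56, 95% interval -3.01 to -0.36, limma adjusted p = 0.633). Within replicates 1 and 2 it was -1.95 and -1.42. At E7.5 it had 5.01 and 5.69 in GFP+ against 5.84 and 6.63 in GFP- cells, which gave -0.88 (SE 0.56), or -0.82 within replicate 1 and -0.94 within replicate 2. The arrays of the fractions did not overlap at either stage. Sfrp2 was also lower at E7.5 than at E6.5 in GFP- cells (-0.99, SE 0.56, -0.97 within replicate 1 and -1.0 within replicate 2), and the stages overlapped in GFP+ cells. The group means ran from GFP- E6.5 (7.22) over GFP- E7.5 (6.23) and GFP+ E6.5 (5.53) to GFP+ E7.5 (5.35), and only the first pair of neighbours did not overlap. Averaged over stages the GFP+ minus GFP- difference was -1.28 (SE 0.40, limma adjusted p = 0.581).

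The Dkk1 difference between the fractions at E6.5 had opposite signs in the 2 replicates. On 1420360_PM_at it had 6.30 in replicate 1 and 4.4 in replicate 2 of GFP+ cells, against 3.00 in replicate 1 and 7.52 in replicate 2 of GFP- cells. The fraction difference was 3.31 within replicate 1 and -3.12 within replicate 2, so that the mean difference of 0.09 (SE 1.34, 95% interval -3.04 to 3.23) describes neither. The value of 3.00 lay below 4.38, so the size of any difference from it is uncertain. Without GFP- E6.5 replicate 1 it was -2.17 and without GFP- E6.5 replicate 2 it was 2.35. The second probe set, 1458232_PM_at, had 4.06 and 3.87 in GFP+ against 2.98 and 6.39 in GFP- cells, with differences of 1.08 and -2.52 within the replicates, and 3 of these 4 arrays lay below 4.38. At E7.5 Dkk1 lay in a narrower range on 1420360_PM_at, with 6.57 and 7.54 in GFP+ against 6.73 and 6.26 in GFP- cells (0.56, SE 1.34). On 1458232_PM_at it had 4.04 and 6.06 in GFP+ against 4.48 and 4.64 in GFP- cells at that stage. The group means of 1420360_PM_at ran from GFP+ E7.5 (7.06) over GFP- E7.5 (6.49) and GFP+ E6.5 (5.35) to GFP- E6.5 (5.26), and all neighbours overlapped. In GFP+ cells both E7.5 arrays of 1420360_PM_at lay above both E6.5 arrays, by 1.70 on average (SE 1.34, limma adjusted p = 1.0; 0.27 and 3.14 within the replicates). In GFP- cells the same stage difference was 1.23 (SE 1.34), made of 3.73 within replicate 1, against the value below 4.38, and -1.26 within replicate 2. The second probe set did not show these patterns, since its GFP+ stages overlapped (1.08, SE 1.07; -0.02 and 2.18 within the replicates) and its GFP- stage difference was -0.13 (SE 1.07).

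Sfrp5 stood clearly above the filter value in 1 array. GFP- replicate 2 at E6.5 had 6.96 on 1436075_PM_at and 7.16 on 1423023_PM_at. The other 7 arrays lay between 4.32 and 5.30 on the first and between 4.10 and 4.85 on the second, close to the filter value of 4.38. The E6.5 differences between GFP+ and GFP- cells were -1.29 (SE 0.74) and -1.39 (SE 0.77), and neither passed (limma adjusted p = 1.0 for both). Without GFP- E6.5 replicate 2 they were -0.02 and -0.10. On 1436075_PM_at both GFP+ arrays at E7.5 (5.30 and 4.74) exceeded both at E6.5 (4.47 and 4.32), by 0.62 (SE 0.74). At E7.5 the fractions overlapped on both probe sets, with differences of 0.44 (SE 0.74) and 0.07 (SE 0.77). No order of groups could be read beyond the single high array.

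**Figure D2:**
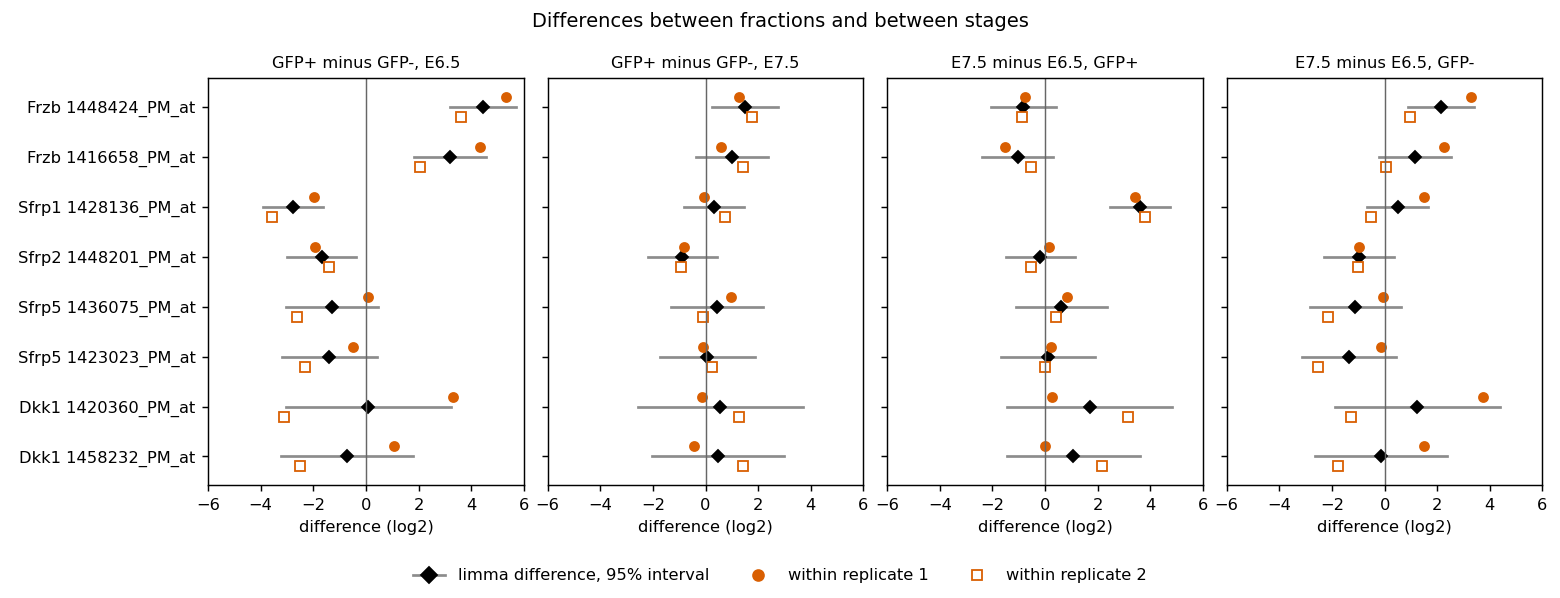
Differences of the 8 probe sets (rows) between fractions at each stage and between stages in each fraction (x axes, log2). Diamonds and lines are the limma difference and its 95% interval, circles and squares the differences within replicate 1 and 2. The 2 symbols lie on opposite sides of 0 for Dkk1 at E6.5 (3.31 and -3.12 on 1420360_PM_at) and on the same side for Frzb (5.31 and 3.6 on 1448424_PM_at).

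The high Sfrp5 array, GFP- E6.5 replicate 2, also had high levels of visceral endoderm markers. Of the anterior visceral endoderm list, 7 of 8 genes were measured, and their mean log2 level was 6.37 and 6.41 in GFP+ against 5.71 and 7.91 in GFP- cells at E6.5 (replicates 1 and 2). Their summed linear level was 1450 and 1972 in GFP+ against 882 and 2627 in GFP- cells. At E7.5 the mean was 6.79 and 6.52 in GFP+ against 6.25 and 6.34 in GFP- cells. Hhex, a homeobox gene of that tissue, had 4.22 and 4.71 in GFP+ against 4.65 and 7.54 in GFP- cells at E6.5. Cer1, which encodes a secreted antagonist of Nodal, BMP and Wnt, had 4.56 and 4.0 in GFP+ against 5.49 and 9.78 in GFP- cells. Lhx1 had 9.63 and 10.26 in GFP+ against 4.43 and 8.78 in GFP- cells, and it is also a gene of nascent mesoderm. For each of these 3 genes GFP- replicate 2 lay far above GFP- replicate 1. All 14 genes of the general visceral endoderm list were measured. Their mean was 4.26 and 4.69 in GFP+ against 6.15 and 7.67 in GFP- cells at E6.5, with 7 and 9 against 14 and 14 markers above the filter value. At E7.5 it was 4.92 and 4.77 in GFP+ against 4.69 and 5.97 in GFP- cells. The Sfrp1 and Sfrp2 differences at E6.5 ran the same way as this list. The epiblast, definitive endoderm and extraembryonic ectoderm lists were also lower in GFP+ cells at that stage. At E7.5 Sfrp1 departed from the visceral endoderm list, with 8.45 and 8.67 in GFP+ cells, the group with its highest mean. Definitive endoderm and node markers (8 of 10 measured) also had their highest mean in GFP- E6.5 replicate 2. That mean was 5.48 and 5.77 in GFP+ against 6.37 and 6.88 in GFP- cells at E6.5. Their summed linear level was higher in GFP- replicate 1, with 880 and 804 in GFP+ against 3683 and 3395 in GFP- cells.

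**Figure D3:**
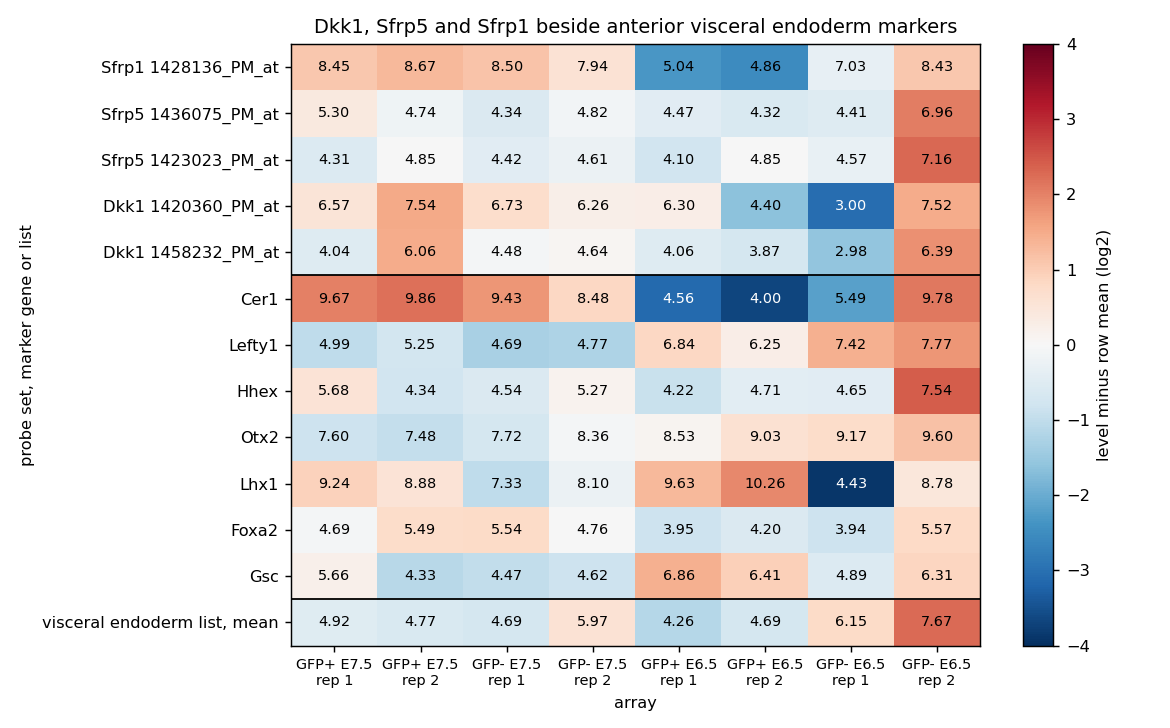
Log2 levels (printed in each cell) of Sfrp1, Sfrp5 and Dkk1 probe sets, of the 7 measured anterior visceral endoderm markers and of the mean of the visceral endoderm list (rows) in the 8 arrays (columns), with colour for the level minus the row mean. The last column, GFP- E6.5 replicate 2, has the highest value in its row for both Sfrp5 probe sets, Hhex (7.54) and the list mean (7.67).

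GFP- E6.5 replicate 1 stood apart in the other direction for several genes. It had the lowest level of the 8 arrays for Dkk1, for Lhx1, for the streak gene Mixl1 (4.5, against 7.90 in GFP- replicate 2) and for the retinoic acid-degrading enzyme gene Cyp26a1 (3.63, against 8.54). The streak and nascent mesoderm list, of which 10 of 12 were measured, had a mean of 9.26 and 9.25 in GFP+ against 5.80 and 7.07 in GFP- cells at E6.5, and of 8.49 and 7.96 in GFP+ against 7.26 and 7.27 in GFP- cells at E7.5. Frzb followed that order. Epiblast markers, 10 of 10 measured, had a mean of 7.70 and 8.20 in GFP+ against 9.46 and 9.57 in GFP- cells at E6.5, and 6.94 and 6.57 against 8.03 and 8.18 at E7.5, the order in which Sfrp2 lay. Markers of extraembryonic ectoderm (9 of 10 measured) had means of 4.78 and 5.15 in GFP+ against 5.59 and 6.26 in GFP- cells at E6.5, and 5.6 and 5.51 against 7.51 and 5.94 at E7.5. The part of endoderm, mesoderm, epiblast or extraembryonic ectoderm cells in the results for the 5 members was not tested.

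No member was called in any of the 7 comparisons. At E6.5 the share of all probe sets called between fractions was 0.0215%, at E7.5 it was 0%, and averaged over stages 0.00538%. Between stages it was 0.0161% in GFP+ cells, 0.0753% in GFP- cells and 0.21% averaged over fractions, and for the interaction of fraction and stage it was 0%. At an unadjusted limma p under 0.05, 4 of 8 member probe sets passed between fractions at E6.5, against 5.67% of all probe sets tested: both of Frzb, and those of Sfrp1 and Sfrp2. At E7.5 this was 1 of 8, a Frzb probe set, against 2.55%, and averaged over stages the same 4 of 8 as at E6.5, against 5.35%. Between stages it was 1 of 8 in GFP+ cells (Sfrp1, against 3.71%), 1 of 8 in GFP- cells (Frzb, against 6.22%) and 1 of 8 averaged over fractions (Sfrp1, against 6.8%). For the interaction it was 3 of 8, both of Frzb and that of Sfrp1, against 2.79%. With the replicate number as a block Sfrp2 also passed an unadjusted limma p under 0.05 at E7.5, between stages in GFP- cells and between stages averaged over fractions, which made 2 of 8 in each, where 6.74%, 11.9% and 13.0% of all probe sets passed. The interaction was -2.95 (SE 0.75) and -2.19 (SE 0.82) for the Frzb probe sets and 3.12 (SE 0.69) for Sfrp1, with a limma adjusted p of 1.0 for each. Arrays of the fractions did not overlap for 4 of 8 member probe sets at E6.5 (28.5% of all) and 3 of 8 at E7.5 (21.3%). Those of the stages did not overlap for 5 of 8 in GFP+ cells (26.8%) and 3 of 8 in GFP- cells (26.7%). The 2 probe sets of a gene share their transcript, and the comparisons share arrays.

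The members did not run in parallel over the 8 arrays. After subtracting the mean of each replicate number, the 2 probe sets of a gene correlated at r = 0.971 for Frzb, 0.891 for Dkk1 and 0.881 for Sfrp5. Frzb (1448424_PM_at) and Sfrp2 had r = -0.925, and Sfrp1 correlated with Frzb at -0.385 and with Sfrp2 at 0.216. Dkk1 (1420360_PM_at) had r = 0.340 with Frzb, 0.552 with Sfrp1 and 0.460 with Sfrp5 (1436075_PM_at). These are descriptions over 8 arrays in 4 groups.

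The genes whose pattern was most like each member were sought among those whose group means spanned at least 2 log2 units (368 or 369 genes). Frzb was closest to Anpep, which encodes a membrane aminopeptidase (r = 0.978), Mesp1 (0.970) and Aph1c, which encodes a gamma-secretase subunit (0.968). Anpep had 8.18 and 8.23 in GFP+ against 5.33 and 6.19 in GFP- cells at E6.5. Sfrp1 was closest to Cer1 (r = 0.965), to the transcriptional co-regulator gene Cited1 (0.963) and to the keratin gene Krt18 (0.938). Cited1 had 4.61 and 4.79 in GFP+ against 6.0 and 8.82 in GFP- cells at E6.5, and 8.82 and 9.21 against 9.27 and 9.48 at E7.5. Sfrp2 was closest to Cdh1, the E-cadherin gene (r = 0.987), the amino acid transporter gene Slc7a3 (0.985) and the nuclear pore gene Nup210 (0.981). Cdh1 had 5.84 and 6.14 in GFP+ against 8.02 and 8.29 in GFP- cells at E6.5, and 5.84 and 5.36 against 6.99 and 6.99 at E7.5. Dkk1 was closest to Lrig1, a gene of a receptor tyrosine kinase regulator (r = 0.919), to Spsb4 (0.863) and to the collagen gene Col4a2 (0.822). Lrig1 had 5.75 and 4.01 in GFP+ against 3.94 and 6.88 in GFP- cells at E6.5, the same crossing of replicates as Dkk1. Sfrp5 was closest to Clic6 (r = 0.877), to Atp8a1 (0.849) and to the Wnt receptor gene Fzd5 (0.846), which had 4.25 and 5.31 in GFP+ against 5.17 and 8.27 in GFP- cells at E6.5. Each of these genes was highest in GFP- E6.5 replicate 2 (Clic6 7.63, Atp8a1 8.24, Fzd5 8.27), the only array in which Sfrp5 stood clearly above the filter value. All these genes were chosen for likeness to a member over the same arrays. A shared peak or crossing therefore follows from the choice and is no separate result.

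Other genes of the pathway gave a frame for the members. Of 21 other Wnt antagonists listed, 13 were tested, none was called between fractions at E6.5, and 1 was higher and 1 lower at an unadjusted limma p under 0.05, against 5.67% of all probe sets tested. These were Igfbp4, an inhibitor of insulin-like growth factors and of Wnt (1.41, SE 0.41), and Cer1 (-3.36, SE 1.19), which the marker list also holds. The Cer1 value was -0.94 within replicate 1 and -5.79 within replicate 2, and -1.22 without GFP- E6.5 replicate 2. Their median difference was 0.06 and that of the 5 members -1.29, beside 0.01 over all genes. The median of the members is the Sfrp5 value itself, and it was -0.02 without GFP- E6.5 replicate 2. Cer1 also ran with Sfrp1 between the stages in GFP+ cells, at 9.67 and 9.86 at E7.5 against 4.56 and 4.0 at E6.5 (5.49, SE 1.19, limma adjusted p = 0.529). Apcdd1, a membrane inhibitor of Wnt, was higher at E7.5 by 1.45 (SE 0.47) in GFP+ cells and by 2.33 (SE 0.47) in GFP- cells, and neither passed.

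Among Wnt ligands, 14 of 19 were tested, none was called at E6.5, and 4 were higher and 0 lower in GFP+ cells at an unadjusted limma p under 0.05, against 5.67% of all probe sets tested. The largest differences were in Wnt5a (3.20, SE 0.60, limma adjusted p = 0.218) and Wnt3, which is needed for the streak (2.24, SE 0.53, limma adjusted p = 0.331). Wnt5a had 5.59 and 6.44 in GFP+ against 2.87 and 2.77 in GFP- cells, below 4.38, so its size is uncertain. Wnt3 had 6.69 and 6.74 in GFP+ against 4.12 and 4.82 in GFP- cells, and the value of 4.12 also lay below 4.38. Frzb and these ligands lay higher in the same fraction. Of 23 receptors, co-receptors and R-spondins, 19 were tested and none was called at E6.5, and 1 was higher and 2 lower at an unadjusted limma p under 0.05. The higher one was the Frizzled receptor gene Fzd1 (1.78, SE 0.36), and the lower ones were Fzd8 (-1.84, SE 0.66) and Lgr4, an R-spondin receptor gene (-2.09, SE 0.65). Fzd8 was -0.89 within replicate 1 and -2.79 within replicate 2. Both of its GFP+ arrays lay below 4.38 (3.81 and 3.72), so its size is uncertain. Lgr4 was -1.14 without GFP- E6.5 replicate 1. Fzd5, at -1.94 (SE 0.92), was -0.39 without GFP- E6.5 replicate 2. Of 17 genes of the beta-catenin pathway inside the cell, 16 were tested and none was called at E6.5, and 2 were higher and 2 lower at an unadjusted limma p under 0.05. The higher ones were Lef1 (1.34, SE 0.55) and Ctnnbip1 (1.02, SE 0.33), and the lower ones Dvl1 (-1.54, SE 0.54) and Tcf7l1 (-1.05, SE 0.44). At E7.5 no gene of the 5 lists was called between fractions.

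Wnt target genes had a median difference of 0.72 between GFP+ and GFP- cells at E6.5, beside 0.01 over all genes. Of the 20 listed, 15 were tested and none was called, and 6 were higher and 0 lower at an unadjusted limma p under 0.05, against 5.67% of all probe sets tested. The list shares Lef1, Tcf7, Lgr5, Apcdd1, Notum, Rnf43 and Znrf3 with the pathway lists above, so that the lists are not independent. It also shares T, which was not tested, with the streak and nascent mesoderm list, and Cdx2 with the extraembryonic ectoderm list. Lef1 is counted as higher in both of its lists. Sp5, a zinc finger gene induced by Wnt, had 8.09 and 8.12 in GFP+ against 4.33 and 5.08 in GFP- cells (3.40, SE 0.39, limma adjusted p = 0.0766). The value of 4.33 lay below 4.38, so the size of the Sp5 difference is uncertain. Tbx6, a T-box gene of paraxial mesoderm, was 2.54 higher (SE 0.50), with both GFP- arrays below 4.38 (3.95 and 3.90), so its size is uncertain. At E7.5 their median difference between fractions was -0.15. Between the stages in GFP- cells their median was 1.36, beside -0.01 over all genes. At an unadjusted limma p under 0.05, 9 of 15 were higher at E7.5 and 0 lower, against 6.22% of all probe sets tested. Called were 2 of 15, both higher at E7.5, against 0.0753% of all probe sets tested. These were Msgn1, a presomitic mesoderm gene (5.18, SE 0.33, limma adjusted p = 0.00358), and the caudal homeobox gene Cdx1 (5.10, SE 0.37, limma adjusted p = 0.00742). Cdx1 had 8.30 and 8.68 at E7.5 against 3.44 and 3.33 at E6.5, below 4.38. The Cdx1 call was lost without any 1 of the 4 GFP- arrays (limma adjusted p = 0.0635 to 0.125). The Msgn1 call was lost without replicate 1 or 2 of GFP- cells at E7.5 (0.0635 and 0.0675) or replicate 2 at E6.5 (0.0682). In the same comparison Frzb was at 2.13, Dkk1 at 1.23, Sfrp1 at 0.49, Sfrp2 at -0.99 and Sfrp5 at -1.11 on their brighter probe sets, none of them called.

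**Figure D4:**
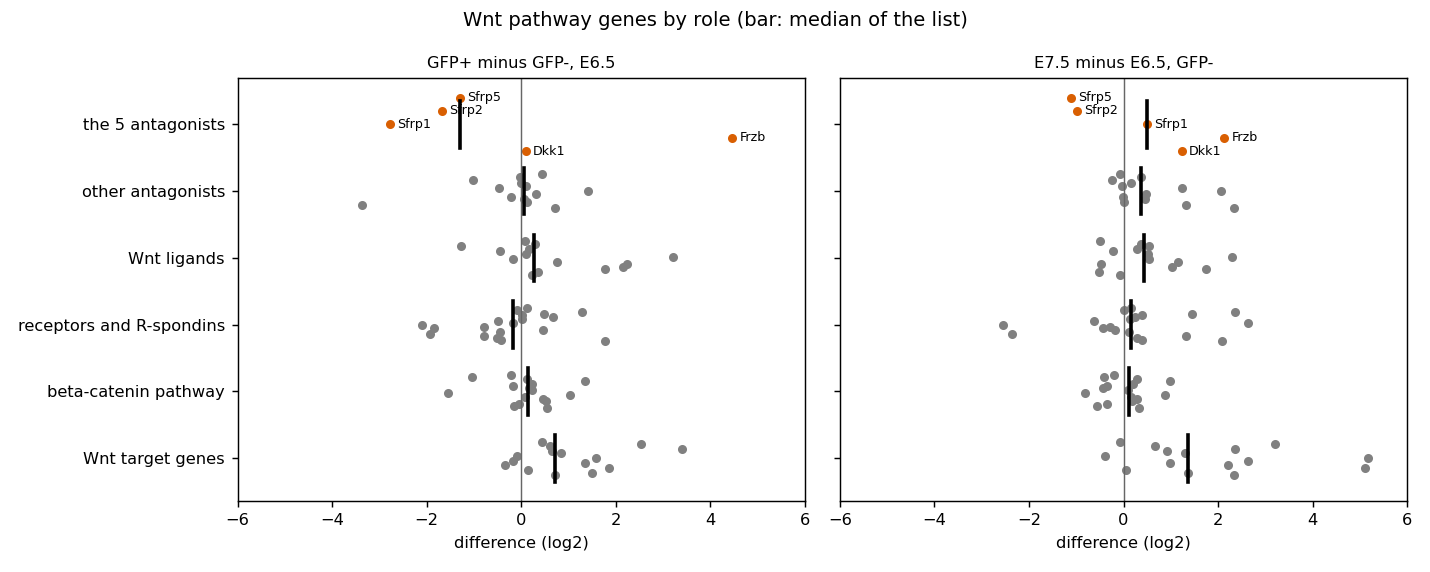
Differences (x axes, log2) of the tested genes of each Wnt pathway list (rows), 1 probe set a gene, between GFP+ and GFP- cells at E6.5 and between E7.5 and E6.5 in GFP- cells. Each point is a gene and each bar the median of its list. The 5 antagonists spread from Sfrp1 at -2.78 to Frzb at 4.46 at E6.5, and the median of the Wnt targets lies at 0.72 at E6.5 and at 1.36 between the stages.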

How the data were processed

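Gene expression was measured on Affymetrix mouse perfect-match arrays in 8 samples, 4 groups of 2. The deposited values were log2 expression of each probe set after the authors' RMA, per the submitters' processing notes. No version of RMA and no genome build is given in the sources used here, nor is a background measure per probe set. Value distributions were nearly alike within a replicate number and differed between the numbers. Whether the 2 numbers were normalized separately is not stated, so a level of replicate 1 and one of replicate 2 may not share a scale. Amplification from 50 cells adds noise that cannot be separated from biological spread, and the number of arrays limits the precision.

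Of 45141 probe sets, 104 were controls, 28898 had 1 gene symbol, 551 several and 15588 were unnamed in the platform annotation. The 18584 named probe sets that passed the filter were fitted with limma 3.58.1 in R 4.3.3 (a mean per group, no pairing, 4 residual degrees of freedom, prior 3.36). The code was tested on simulated arrays that varied independently, with no effect of replicate number. That test cannot tell whether a fit without pairing suits these arrays. Tests were two-sided. For lists, the probe set with the highest mean stood for a gene. Members and lists were chosen with earlier results of these data known. Named genes were all members, the 3 genes most like each, and, per list, those called or otherwise the 2 largest differences. Mixl1, Cyp26a1, Hhex, Lhx1, Fzd1, Fzd8, Ctnnbip1 and Tcf7l1 were picked after their values were seen. Alternatives were the replicate block, filter, probe sets tested, normalization, variance model, arrays in the fit and leaving out each array, which for Mesp1 and the pathway genes were added after seeing the data.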

Additional observations from a re-analysis of the deposited data

Results flagged for a closer look

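Both Frzb probe sets had stage differences that ran in opposite directions in the 2 fractions with no overlap of arrays. On 1448424_PM_at GFP+ cells had 9.04 and 8.67 at E7.5 against 9.82 and 9.54 at E6.5, and GFP- cells had 7.78 and 6.92 at E7.5 against 4.5 and 5.94 at E6.5. The stage difference in GFP+ cells minus that in GFP- cells was -2.95 (SE 0.75), or -4.05 and -1.84 within replicates 1 and 2. On 1416658_PM_at it was -2.19 (SE 0.82), or -3.77 and -0.61 within the replicates. There the GFP- arrays came as near as 5.48 at E7.5 and 5.42 at E6.5, and the GFP- stage difference was 0.06 within replicate 2 and 0.26 without GFP- E6.5 replicate 1, an array at 3.64 and so below the filter value of 4.38. Neither passed the limma test of the interaction (adjusted p = 1.0 for both, unadjusted p = 0.0053 and 0.0307). Such opposite, non-overlapping stage differences were found in 2.73% of the 18584 probe sets tested. Mesp1 had the same pattern, with 8.75 and 8.65 at E7.5 against 9.75 and 10.03 at E6.5 in GFP+ cells and 7.76 and 8.06 against 5.64 and 6.26 in GFP- cells. The part of shifts in cell makeup between the stages was not tested.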

How the results depend on the processing

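Over 16 alternatives, 851 values of the 56 member differences were recomputed. Of these, 814 kept direction and side of the threshold, 4 passed newly and 33 turned sign. The first fit called no member, so a result that turned sign could only be an uncalled one. Several alternatives, such as the replicate block, the filter and the variance model, changed the test and not the difference. There, and where an array outside the comparison was left out, the sign could not turn. Member probe sets called were 0 in each comparison, and 1 with each array centred on its median (E6.5, Frzb) and with a prior spread that varied with level (E6.5 and averaged over stages, Frzb, and E7.5 minus E6.5 averaged over fractions, Sfrp1). The cause was not tested.

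Without 1 array, GFP+ minus GFP- values at E6.5 ran from -2.17 to 2.35 (Dkk1 1420360_PM_at) and -2.42 to 0.99 (Dkk1 1458232_PM_at), and at E7.5 from -0.20 to 0.34 (Sfrp5 1423023_PM_at) and -0.52 to 1.5 (Dkk1 1458232_PM_at). Averaged over stages they ran from -1.06 to 0.21 (Sfrp5 1436075_PM_at), -0.80 to 1.46 (Dkk1 1420360_PM_at) and -0.97 to 0.74 (Dkk1 1458232_PM_at), the last also 0.01 with quantile normalization over all arrays. E7.5 minus E6.5 in GFP+ cells ran from -0.85 to 0.49 (Sfrp2) and -0.27 to 0.48 (Sfrp5 1423023_PM_at). In GFP- cells it ran from -0.21 to 1.19 (Sfrp1), -2.38 to 0.17 (Sfrp5 1436075_PM_at), -1.03 to 3.50 (Dkk1 1420360_PM_at) and -1.83 to 1.58 (Dkk1 1458232_PM_at, 0.07 with quantile normalization). Averaged over fractions it ran from -0.39 to 0.50 (Frzb 1416658_PM_at), -0.88 to 0.40 and -1.27 to 0.02 (Sfrp5 1436075_PM_at and 1423023_PM_at) and -0.38 to 1.33 (Dkk1 1458232_PM_at). The interaction ran from -1.79 to 2.73 and -0.50 to 2.91 (Dkk1 1420360_PM_at and 1458232_PM_at).

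Of all probe sets, limma called 4 between fractions at E6.5 (1054 at an unadjusted p under 0.05), against 10 with the replicate block, 9 with 1 probe set per gene, 17 centred, 23 with the varying prior, 0 with only the arrays of the comparison and 0 to 1 without 1 array. At E7.5 it called 0 (473 unadjusted). Averaged over stages it called 1, against 7 with the block, 0 with unnamed probe sets added, 5 centred, 15 with the varying prior and 0 without 1 array. Between stages in GFP+ cells it called 3, against 0 with no filter, 0 with unnamed probe sets added, 6 centred, 5 with the varying prior, and 0 with only the arrays of the comparison or without any 1 array. In GFP- cells it called 14, against 53 with the block, 34 with quantile normalization, 40 centred, 46 with the varying prior, 4 with only the arrays of the comparison and 2 to 5 without 1 array. Averaged over fractions it called 39, against 119 with the block, 99 with the varying prior and 7 to 12 without 1 array. For the interaction it called 0 (518 unadjusted) and 2 with the varying prior. A fit without 1 array has fewer samples, and its lone array is assumed to vary like the other groups.

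Same-numbered arrays deviated together from their group means in all 6 pairs of groups (r = 0.399 to 0.53 across probe sets), but no label says that a number marks shared embryos. With the replicate block no member passed, with a limma adjusted p at E6.5 of 0.0682 and 0.134 for Frzb, 0.123 for Sfrp1 and 0.0874 for Sfrp2.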
